A study of Mus musculus with 20 samples.

Results

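In mouse embryonic stem (ES) cells, 329 distal regions carried both H3K4me1 and H3K27ac while p300 reads stayed below a fixed limit in both p300 libraries, in the region and in the kilobase on either side. They are called p300-low regions here. The genome was divided into 1 kb bins on chromosomes 1 to 19, reads were counted once per position and strand, and levels were expressed as RPM (distinct reads per 1 M distinct reads of the library). A bin was distal where H3K4me3, the promoter mark, stayed below 1.5 RPM in ES cells and in liver in the bin and both neighbours, which held for 2278109 of 2462430 bins. A distal bin was acetylated where mean ES H3K4me1 and mean ES H3K27ac each reached 2 RPM and 2 times the total H3 level plus 0.1, which held for 28200 bins, or 14700 regions when joined. Of these bins, 346 (1.23%) had p300 below 1 RPM in each library in the bin and both neighbours, and bins up to 1000 bp apart were joined into the 329 regions. The regions were thus chosen by measured ES levels of H3K4me1, H3K27ac, H3, H3K4me3 and p300 and by liver H3K4me3, so levels of H3K4me1, H3K27ac, H3, H3K4me3 and p300 within them are given as a description with no test.

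The libraries were made by ChIP-seq, where chromatin is pulled down with an antibody and its DNA sequenced. ES cells of the line V6.5 (C57BL/6-129; 129JAE-C57/B6 in other labels) gave the libraries for H3K27ac (2), p300 (2), H3K4me3, total H3 and whole cell extract (WCE, DNA sequenced without an antibody). The second p300 library carries p301 in 1 label field and p300 in the others, and was used as p300. ES H3K4me1 had 3 libraries, replicate 1 from V6.5 cells, replicate 2 from V6.5 cells carrying the dox-inducible 4f2a transgene, and replicate 3 from inbred C57BL/6 ES cells of the line j21. The ES and induced pluripotent stem (iPS) cells had been grown on irradiated mouse embryonic fibroblasts (MEFs) and were kept for 1 or 2 passages without them before ChIP. The libraries that had no part in choosing the regions were iPS H3K4me1, from the line O6 made from MEFs; MEF H3K4me1 and H3; H3K4me1, H3K27ac, H3 and WCE of perfused whole liver, dissociated and strained, with no age or number of animals in the labels; H3K27ac and the transcription factor Rfx1 in neural progenitors (NPCs) derived from 129JAE-C57/B6 cells through embryoid bodies plated at 4 days; and ES WCE. Each of these was a single library, so a difference between 2 of them has no replicate of its own. In whole tissue, fewer marked cells and less mark per cell cannot be told apart. The labelled cell types were not checked against marker genes, since no gene annotation of the files' assembly was used here. Distinct reads per library ran from 0.705 to 14.5 M. ES H3K4me3, which helped to set the distal bins, had 2.37 M after its many repeated reads were dropped, so 1 read was worth 0.422 RPM there.

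Enhancers are stretches of DNA away from promoters that raise transcription of a gene when bound by transcription factors. H3K4me1 marks nucleosomes at enhancers whether or not they are active, and H3K27ac is found at those that are active. p300 is an acetyltransferase that acetylates H3K27 among other lysines, is brought to enhancers by transcription factors, and is widely used to locate them. Its close relative CBP carries out the same reaction, and no CBP library was used here.

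The p300 limit was a small number of reads. With 7.06 and 8.38 M distinct reads in the p300 libraries, a bin below 1 RPM held at most 7 reads in replicate 1 and 8 in replicate 2. The highest bin of the 3-bin window stood at 0.992 RPM, which is 7 reads in replicate 1, in 140 of the 346 bins, so many held the most reads the limit allowed. The next value up, 1.07 RPM, held 143 acetylated bins that were left out. The last bins inside, in genome order, were chr19:23111001-23112000, chr19:26707001-26708000 and chr19:37448001-37449000, with p300 at 0.992 and 0.955, 0.992 and 0.955, and 0.992 and 0.716 RPM. The first outside were chr1:12727001-12728000, chr1:34007001-34008000 and chr1:34008001-34009000, whose own bins held 0.992 and 1.07, 0.708 and 0.477, and 0.567 and 1.07 RPM. Coordinates are 1-based positions as in the files, and the assembly, inferred to be mm8 from the largest positions, is not stated in the labels.

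Since the choice capped p300, its level inside the p300-low regions is a description only. Mean p300 was 0.704 and 0.691 RPM per kb in replicates 1 and 2, mean WCE was 0.725, and mean p300 over mean WCE in the bins was 0.964 and 0.952. Over the region and both flanking bins, p300 lay above WCE in both libraries at 93 regions and below it in both at 151. The 6055 acetylated regions with p300 (at least 2 RPM and 2 times WCE plus 0.1 in each library) had ratios of 7.20 and 6.76, and the 12612 acetylated regions between these limits 1.90 and 1.63. Bins were joined within each set, so 1 stretch of acetylated bins can give regions to several sets. Distal bins in general stood at 0.865 and 0.895. With at most 7 or 8 reads per bin, weak p300 in a single bin could not be told from none. No detection limit was worked out.

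The choice held only in part when 1 p300 library made it and the other was read. Chosen with replicate 1 alone, 1067 bins passed, and 32.4% of them also met the limit in replicate 2, against 4.78% of all acetylated bins. Chosen with replicate 2 alone, 1347 bins passed, and 25.7% met it in replicate 1, against 3.78%. In the library not used, mean p300 in the chosen bins was 1.01 RPM (replicate 2) and 1.22 RPM (replicate 1), against 2.43 and 2.68 in all acetylated bins. Mean WCE in the same bins was 0.75 and 0.776 RPM. The library not used was thus below its level in acetylated bins at large and above WCE in both cases.

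Acetylation of the p300-low regions was near the lower limit of the choice. H3K27ac was below 3 RPM in 269 of the 346 bins (77.7%), against 42.3% of all acetylated distal bins. The median over regions was 2.82 RPM per kb in replicate 1 (lowest 0.789, highest 7.10) and 2.35 in replicate 2 (0.822 to 8.34). Only 176 regions (53.5%) reached 2 RPM in both libraries, and replicate 1 was above replicate 2 in 71.1% of bins, against 59.2% of all acetylated bins. When H3K27ac replicate 1 alone made the choice, 33.5% of 538 bins met the H3K27ac limit in replicate 2, against 73.5% of the acetylated bins chosen the same way. With replicate 2 alone, 70.3% of 256 bins met it in replicate 1, against 86.0%. For many of the regions, then, H3K27ac above the limit rested on 1 of the 2 libraries.

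H3K4me1 varied between libraries as well. Its median was 2.67, 2.52 and 3.03 RPM per kb in replicates 1, 2 and 3, and 181 regions (55.0%) reached 2 RPM in all 3. The inbred C57BL/6 library was the highest of the 3 at 176 regions (53.5%). In 1 region, singled out after its values were seen, that library had 0 reads, where V6.5 cells had 30 and the cells with the 4f2a transgene 36. H3K27ac exceeded H3K4me1 at 129 of the p300-low regions (39.2%) and at 3341 of the regions with p300 (55.2%). Total H3 had a median of 0.521 RPM per kb and WCE of 0.705. The plot of levels by library shows all 20 libraries side by side.

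**Figure D1:**
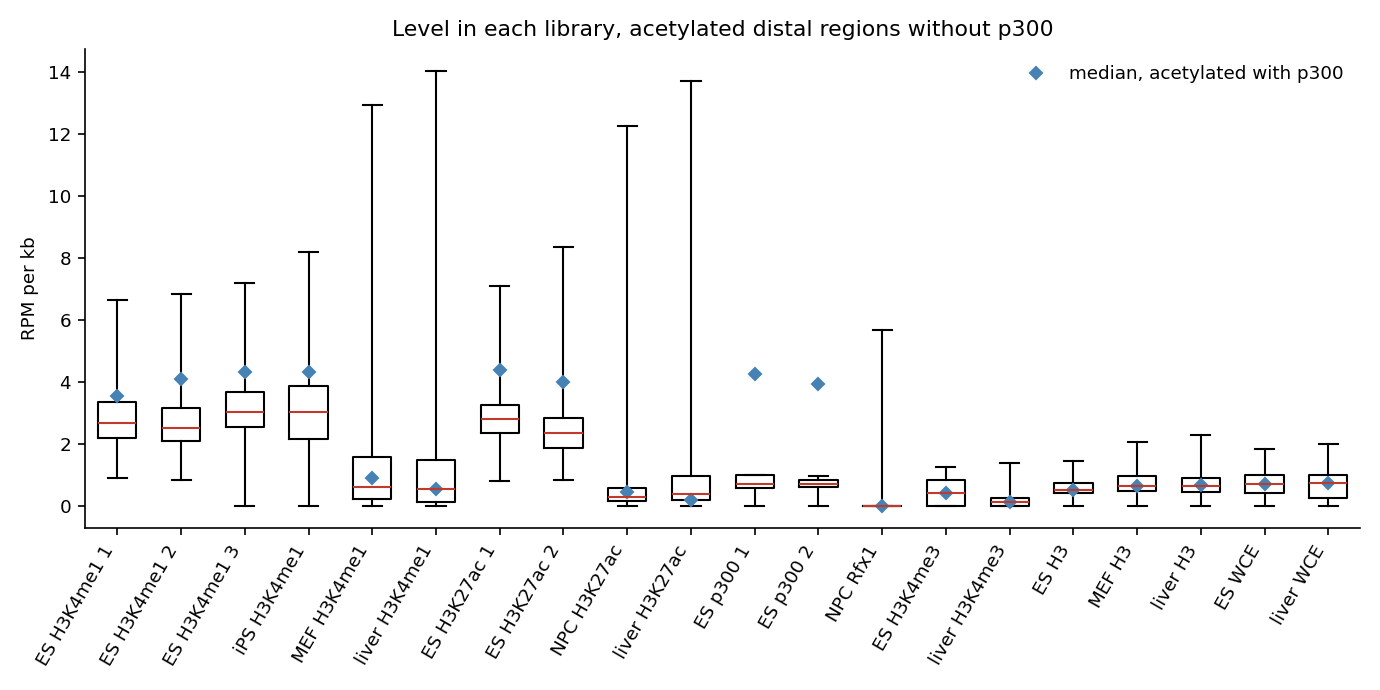
Level in RPM per kb (vertical axis) of the 329 p300-low regions in each of the 20 libraries. Boxes give the quartiles, red lines the median and whiskers the lowest and highest region, and blue diamonds give the median of the 6055 acetylated regions with p300. p300 medians are 0.708 and 0.716 in the p300-low regions, next to a WCE median of 0.705.

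The 5 p300-low regions with the most H3K27ac show what strong acetylation without p300 over the limit looked like. At chr17:83602001-83603000, H3K27ac was 5.86 and 8.34 RPM in replicates 1 and 2, H3K4me1 was 2.38, 2.73 and 2.71 RPM in replicates 1 to 3 (SD 0.199, n = 3), p300 was 0.992 and 0.716, and WCE was 1.13. At chr15:100093001-100094000, H3K27ac was 7.10 and 5.64 RPM, H3K4me1 2.67, 1.99 and 2.87, p300 0.283 and 0.716, and WCE 0.705. In these regions both p300 libraries were near or under WCE. At chr3:133459001-133460000, H3K27ac was 5.97 and 6.70 RPM, H3K4me1 3.56, 3.25 and 2.55, p300 0.992 and 0.955, and WCE 0.141. Here p300 passed under the limit and yet both libraries were above WCE, which had a single read. At chr2:162773001-162774000, H3K27ac was 4.28 and 7.05 RPM, H3K4me1 2.67, 2.62 and 2.87, p300 0.425 and 0.835, and WCE 0.282. At chr5:145461001-145462000, H3K27ac was 5.63 and 5.05 RPM, H3K4me1 2.38, 2.20 and 3.67, p300 0.708 and 0.716, and WCE 0.705. The first 4 lay inside wider H3K27ac domains of 6000, 17000, 23000 and 46000 bp that also held a bin with p300. The last made up a domain of its own. The domains of 17000, 23000 and 46000 bp also held a bin with H3K4me3. In the order given, the nearest bin with H3K4me3 of at least 1.5 RPM in ES cells or liver lay 10000, 4000, 3000, 2000 and 1000 bp away. chr2:162773001-162774000 itself held 1.27 RPM of ES H3K4me3.

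Most p300-low regions were narrow. A single bin made up 314 of them (95.4%), and the widest spanned 4000 bp. That region, chr9:64022001-64026000, had H3K27ac of 2.34 and 1.88 RPM per kb, H3K4me1 of 3.09, 2.97 and 2.63, and p300 of 0.390 and 0.656, with WCE at 0.740. The 4 others among the 5 widest spanned 3000 bp each, at chr2:119158001-119161000, chr11:22739001-22742000, chr9:106201001-106204000 and chr4:136911001-136914000. Their mean H3K27ac was 3.01, 2.69, 2.32 and 2.14 RPM per kb and their mean p300 0.447, 0.605, 0.743 and 0.772. Low p300 there and in the bins on either side is what the choice required.

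The p300-low regions often lay beside stronger acetylation. For 247 of 329 (75.1%, 95% Wilson interval 70.1 to 79.4), a bin within 5 kb held more H3K27ac than the region's own highest bin, and for 175 (53.2%, 47.8 to 58.5) it held at least 2 times as much. These shares were 45.5% (44.3 to 46.8) and 17.8% (16.8 to 18.7) in the acetylated regions with p300, and 63.1% (62.3 to 64.0) and 35.9% (35.0 to 36.7) in those with p300 between the limits. Own levels differ between the sets, with medians of 2.48, 4.33 and 3.18 RPM for the highest bin in the same order, and a low own level is easier to exceed. The highest bin within 5 kb had a median of 6.12 RPM beside the p300-low regions, 4.36 RPM beside those with p300 and 4.91 RPM beside those between. Within 2 kb these medians were 2.69, 3.22 and 2.80 RPM, the opposite order. The shares with a bin above the region's own highest were 49.5%, 28.6% and 42.6% within 2 kb. Intervals here and below cover counting error only, neighbouring regions are not independent, and PCR copies are not independent molecules.

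The averaged profile gives the levels by distance. H3K27ac replicates 1 and 2 averaged 3.01 and 2.60 RPM per kb within 500 bp of the centre of the p300-low regions, fell to 1.98 and 1.60 at 1000 to 2000 bp, and reached 3.37 and 3.28 at 2000 to 4000 bp. Around regions with p300 the order was 5.60 and 5.09, 2.69 and 2.42, and 2.37 and 2.30. p300 averaged 0.728 and 0.705 RPM per kb at the centre of the p300-low regions and 1.54 and 1.5 at 2000 to 4000 bp, outside the 3 bins the choice used for most regions. ES H3K4me3 stood at 0.473 and 2.10 RPM per kb in the same 2 windows, and NPC H3K27ac at 0.568 and 2.18. Around regions with p300, NPC H3K27ac stood at 1.09 and 0.918. The NPC library had no part in the choice. Bins with H3K4me3 were kept out of the centre, however, so the NPC dip need not be independent of the choice. H3 and WCE around the p300-low regions stayed between 0.539 and 0.739 in these windows. The choice asked for ES H3K4me1 and H3K27ac in the region and not in its neighbours, so the central summit of both marks is part of the choice. It also held H3K4me3 and p300 low in the region and both neighbouring bins, so their dip is part of it too.

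**Figure D2:**
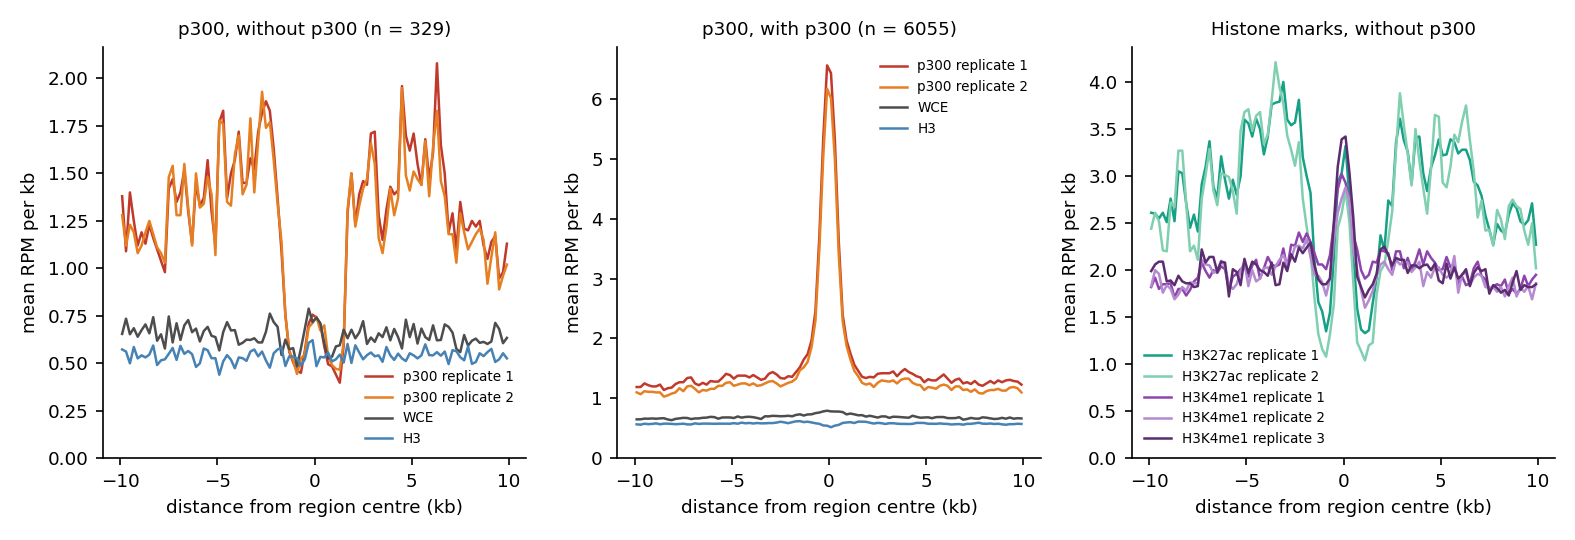
Mean RPM per kb (vertical axis) against distance from the region centre in kb (horizontal axis), in steps of 200 bp. Left and middle, p300, WCE and H3 around the 329 p300-low and the 6055 p300-bearing regions; right, H3K27ac and H3K4me1 around the p300-low regions. p300 follows WCE at the centre of the p300-low regions and lies above it beyond 2000 bp, and H3K27ac is as high in the flanks as at the centre.

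Distances to H3K4me3 and p300 were compared by count. A bin with H3K4me3 of at least 1.5 RPM in ES cells or liver lay within 5 kb of 219 p300-low regions (66.6%, 61.3 to 71.4), against 53.3% (52.1 to 54.6) of regions with p300, 61.8% (61.0 to 62.7) of those between and 46.8% (45.4 to 48.1) of the 5290 distal regions with H3K4me1 alone, where each H3K27ac and p300 library was below 1 RPM. Within 2 kb the p300-low regions stood at 39.5% (34.4 to 44.9) and those between at 43.2% (42.3 to 44.0), the opposite order. The median distance was 3000, 5000, 3000 and 6000 bp for the p300-low regions, those with p300, those between and those with H3K4me1 alone. A bin with p300 lay within 5 kb of 204 p300-low regions (62.0%, 56.7 to 67.1), against 67.5% (66.6 to 68.3) of those between and 46.1% (44.8 to 47.5) of those with H3K4me1 only. No test compares these shares. p300 could not lie within 1 kb of a p300-low region by the way the regions were chosen.

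**Figure D3:**
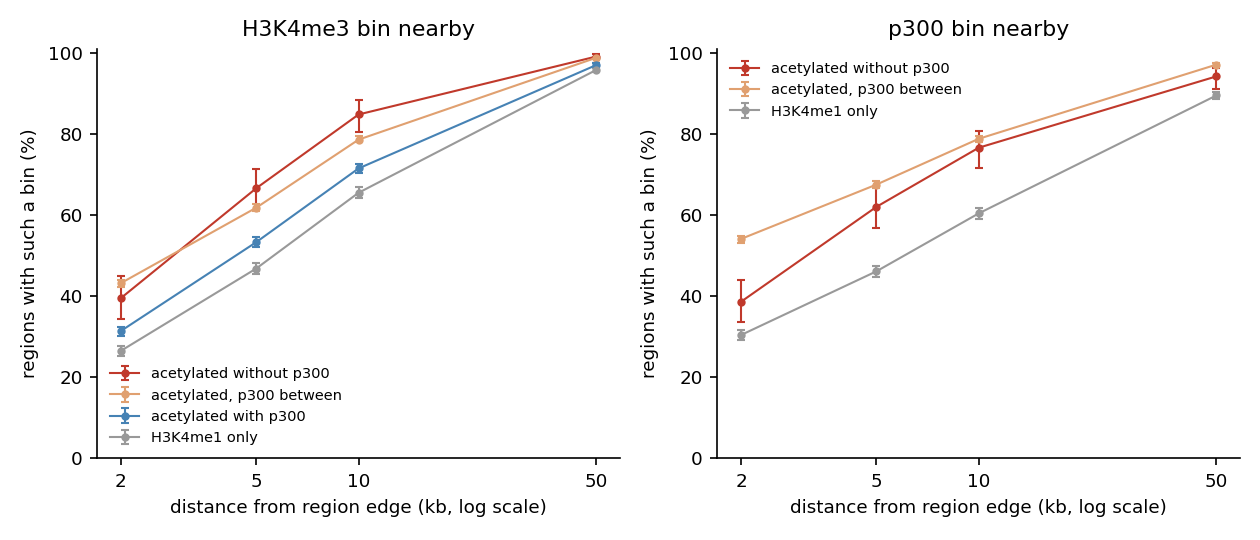
Share of regions in percent (vertical axis) with a bin of H3K4me3 (left) or p300 (right) within 2, 5, 10 or 50 kb of the region's edge (horizontal axis, log scale). Points are shares of each region set and bars 95% Wilson intervals; 66.6% of p300-low regions have an H3K4me3 bin and 62.0% a p300 bin within 5 kb.

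By the H3K27ac domain around them, the p300-low regions fell into those that were a whole domain, called isolated here, and those embedded in a wider one. A domain is a run of bins that met the H3K27ac limits, joined over 1000 bp, with no condition on H3K4me3 or p300. For 131 regions (39.8%, 34.7 to 45.2) the region was the whole domain, against 39.7% (38.8 to 40.5) of the acetylated regions with p300 between the limits and 28.8% (27.7 to 30.0) of those with p300. A domain with an H3K4me3 bin held 38.0% (32.9 to 43.3) of the p300-low regions, 35.7% (34.9 to 36.5) of those between and 31.5% (30.4 to 32.7) of those with p300. In both respects the interval of the p300-low regions took in the value of those between. Another 108 (32.8%) lay in domains that held both an H3K4me3 bin and a p300 bin, with a median width of 12000 bp, 35 (10.6%) in domains with p300 but no H3K4me3, 17 (5.17%) with H3K4me3 but no p300, and 38 (11.6%) in wider domains with neither. The isolated regions lay a median of 5000 bp from an H3K4me3 bin and 7000 bp from a p300 bin. Over all p300-low regions these medians were 3000 and 4000 bp. The name thus refers to the domain alone and not to a lack of marks nearby. In the isolated regions the H3K27ac medians were 2.59 and 2.23 RPM per kb and the p300 medians 0.850 and 0.716. In the domains with both they were 2.93 and 2.33, and 0.708 and 0.716. Of the isolated regions, 7.63% (10 of 131, interval 4.20 to 13.5) carried H3K27ac in NPCs and 26.0% (19.2 to 34.1) H3K4me1 in liver. Of the regions in domains with both, 3.70% (4 of 108, 1.45 to 9.14) and 13.9% (8.60 to 21.7) did, and the intervals overlap in each case.

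Of the other cells, iPS cells marked most of the p300-low regions and MEFs, liver and NPCs each marked a minority. A region counts as marked where a bin reached 2 RPM and 2 times H3 plus 0.1, with H3 of the same cells, or of ES cells for iPS cells and NPCs. iPS H3K4me1 marked 247 of 329 (75.1%, 70.1 to 79.4), MEF H3K4me1 63 (19.1%, 15.3 to 23.7), liver H3K4me1 64 (19.5%, 15.5 to 24.1), liver H3K27ac 41 (12.5%, 9.32 to 16.5) and NPC H3K27ac 16 (4.86%, 3.02 to 7.75). Marked in iPS cells and none of the others were 154 regions (46.8%), in no other cell type 65 (19.8%), and in at least 1 of MEFs, liver and NPCs 110 (33.4%). H3K27ac and H3K4me1 of liver marked the same region at 35 of the 41 with liver H3K27ac, while liver and NPC H3K27ac shared 5 regions. All 5 libraries marked 3. The iPS library had 2.32 M distinct reads and a median of 7 reads per region, so single regions near the limit are uncertain there.

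For NPC H3K27ac, MEF H3K4me1 and iPS H3K4me1 the shares were below those of acetylated regions with p300, and for both liver marks the intervals overlapped. Regions with p300 were marked at 11.8% (11.0 to 12.6) by NPC H3K27ac, 33.7% (32.5 to 34.9) by MEF H3K4me1, 91.9% (91.2 to 92.5) by iPS H3K4me1, 20.2% (19.2 to 21.2) by liver H3K4me1 and 11.4% (10.6 to 12.2) by liver H3K27ac. Those with p300 between the limits stood at 11.4%, 33.8%, 91.3%, 23.6% and 13.9% in the same order. Distal regions with H3K4me1 only stood at 2.17%, 15.4%, 63.6%, 16.2% and 6.39%. These differences carry no test, since each other cell type has 1 library, and the regions with p300 were wider on average and more strongly acetylated.

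**Figure D4:**
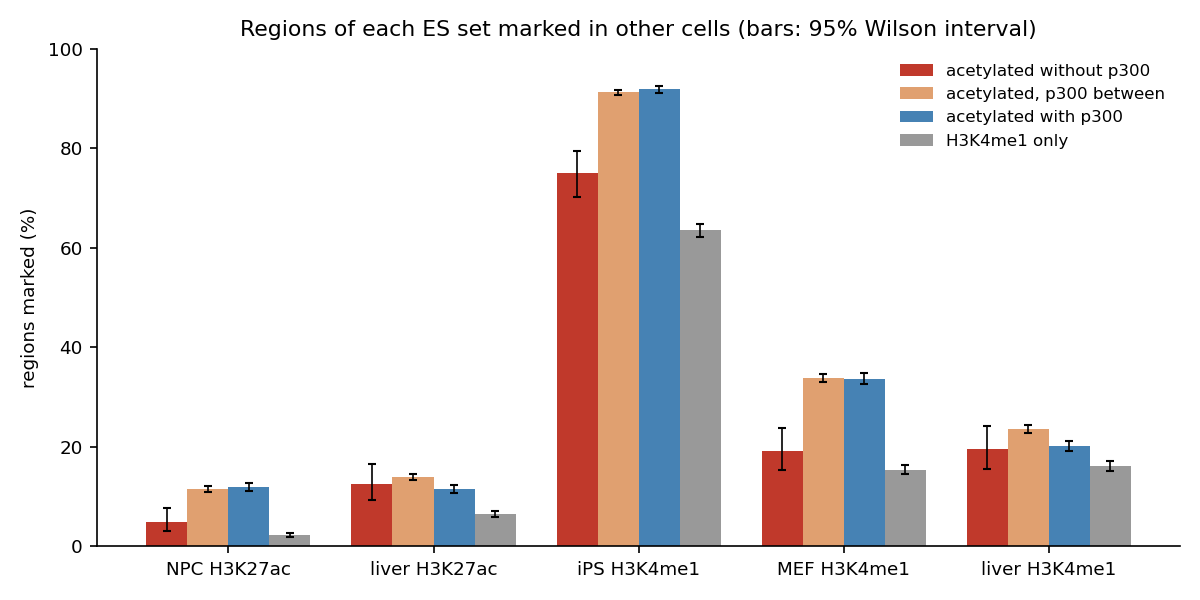
Share of regions in percent (vertical axis) that were marked by each library of other cells (horizontal axis), for 4 sets of ES distal regions. Bars are shares and black lines 95% Wilson intervals; the 329 p300-low regions stand at 4.86% for NPC H3K27ac and 75.1% for iPS H3K4me1.

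Most p300-low bins are weakly acetylated, so bins of like ES acetylation were set side by side. In bins with 2 to 2.5 RPM of ES H3K27ac, which held 183 p300-low bins and 987 with p300, NPC H3K27ac marked 5.46% and 6.99%, MEF H3K4me1 20.2% and 23.7%, and iPS H3K4me1 78.1% and 87.3%. Liver H3K27ac marked 13.7% of the p300-low bins and 7.90% of those with p300, and liver H3K4me1 20.8% and 12.5%. In bins with 2.5 to 3 RPM, 86 and 912 in number, the liver shares were 15.1% and 8.88% for H3K27ac and 22.1% and 16.4% for H3K4me1. NPC H3K27ac there marked 5.81% and 7.68%, and iPS H3K4me1 70.9% and 89.3%. In the 59 and 1455 bins with 3 to 4 RPM the liver shares were 3.39% and 9.14%, and 10.2% and 16.6%, the opposite order. NPC H3K27ac marked 1.69% and 9.62% of these bins, MEF H3K4me1 10.2% and 26.3%, and iPS H3K4me1 72.9% and 91.6%. With 59 p300-low bins here and 18 above 4 RPM, the small shares rest on few bins. They carry no interval, so no trend across classes is read from them. At equal H3K27ac, ES H3K4me1 also differed, with means of 2.80 and 3.62 RPM in the lowest class. Above 4 RPM only 18 p300-low bins remained (0.180% of acetylated bins at that level), against 2.69% of those at 2 to 2.5 RPM. NPC H3K27ac marked 0 of these 18 bins and 12.0% of the 4261 with p300, MEF H3K4me1 11.1% and 34.5%, iPS H3K4me1 66.7% and 92.4%, liver H3K27ac 5.56% and 11.5%, and liver H3K4me1 11.1% and 20.8%.

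Differences between libraries that had no part in the choice were tested with limma. All distal regions enriched in any cell type entered, with the p300-low regions kept as separate regions. Liver H3K4me3 did have a part and was held low in all distal bins, where MEFs and NPCs had no such limit. The ES H3K4me1 and H3K27ac libraries, which helped to choose the regions, gave the spread. It had 2 residual degrees of freedom for H3K4me1 and 1 for H3K27ac, and a lone library was taken to scatter as the ES libraries do. The 3 ES H3K4me1 libraries came from 3 kinds of ES cells, and the labels do not say whether the 2 H3K27ac libraries came from separate cultures, so each p-value reflects only how far these few libraries scatter, in part perhaps for technical reasons.

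iPS cells carried more H3K4me1 than MEFs at many p300-low regions. At a Benjamini-Hochberg adjusted p of 0.05, limma called 155 of 329 higher in iPS cells (47.1%) and 18 lower (5.47%), where 28.8% of all 84418 regions were called higher and 35.0% lower. Regions enriched only in MEFs or iPS cells entered that table through those libraries. Among the 12991 other ES regions with both marks, 56.9% were called higher and 12.1% lower. The median log2 difference was 1.39 in the p300-low regions and -0.26 over all regions. Without ES replicate 2 the calls were 102 and 8, beside 17286 and 23896 of all 83924 regions. limma-voom, which weights each value by its read number, called 143 and 10, beside 23679 and 19595 of all 84418. Called under each of the 8 settings run were 96 higher (29.2%) and 4 lower (1.22%), a count not made over all regions. Of the 155 called higher, 98 had fewer than 10 iPS reads and 24 had 0 MEF reads. On simulated data with 200 of 49568 regions changed 8-fold, this contrast recovered 199 with limma and 200 with limma-voom. It also called 915 (1.85%) and 218 (0.442%) of the unchanged regions, in both cases more than the changed ones called. The simulation changed far fewer regions than were called among all regions, so its share of false calls need not hold here.

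The leading gains were regions with no or almost no MEF reads. At chr7:44245001-44246000, iPS cells had 11 reads (4.74 RPM) and MEFs 0, at least 22.8-fold higher with MEFs at a floor of 3 reads in the library. That floor does not carry the counting error of the iPS reads, and the exact counting interval of the ratio starts at 15.6. The 3 ES libraries had 5.05, 4.93 and 4.63 RPM there. At chr15:97214001-97215000 there were 14 reads (6.03 RPM) against 1, and at chr14:20410001-20411000 17 reads (7.32 RPM) against 2, ratios of 87.2 (exact counting interval 13.3 to 3690) and 52.9 (12.6 to 472). The limma adjusted p was 0.000944, 0.00104 and 0.00104 for the 3 regions. The largest loss was chr16:24339001-24340000, with 3 iPS reads (1.29 RPM) against 187 in MEFs (12.9 RPM). limma gave a log2 difference of -3.51 there, with an SE of 0.368 and an adjusted p of 0.000749. This region also held 11.3 RPM of H3K4me1 and 11.2 RPM of H3K27ac in liver, and 2.93 and 2.59 RPM of H3K27ac in ES cells. The other leading losses, chr14:73612001-73613000 and chr7:130677001-130678000, had 2 and 1 iPS reads against 81 and 34 in the deeper MEF library. Scaled to library size, MEFs were 6.5 (1.74 to 54.6) and 5.46 (0.916 to 222) times as high, and the second interval takes in equal levels. The limma call of the second stood in 6 of 8 settings and was lost with limma-voom (adjusted p = 0.166, where its settings ranged from 0.0125 to 0.166).

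Liver and MEFs differed in both directions. limma called 62 regions higher in liver (18.8%) and 52 lower (15.8%), where 26.5% and 31.9% of all regions and 22.1% and 32.1% of the other acetylated ES regions were called. The share of calls was thus below the background in both directions. Regions enriched only in liver or MEFs entered that table through those libraries. The p300-low regions were mostly single bins, with a median of 4 liver and 9 MEF reads, and what set their lower share was not tested. The median log2 difference was 0.11 against -0.24 over all regions. Without ES replicate 1 the calls were 34 and 32, beside 18506 and 21559 of all 83643 regions. Without replicate 2 they were 30 and 29, beside 17051 and 20061 of 83924. limma-voom called 62 higher and 30 lower, beside 24007 and 24901 of 84418. Under all 8 settings 29 (8.81%) and 23 (6.99%) were called, a count not made over all regions. At chr1:93818001-93819000 liver had 72 reads (9.72 RPM) and MEFs 3, a ratio of 46.8 (15.4 to 232). At chr14:39835001-39836000 liver had 104 reads (14.0 RPM) and MEFs 8 (0.553 RPM). limma put the log2 difference at 4.42, SE 0.468, with an adjusted p of 0.000938. At chr7:25137001-25138000 liver had 36 reads against 1. In the other direction, chr16:22069001-22070000 had 0 liver reads and 65 in MEFs (4.50 RPM), at least 11.1-fold lower in liver with a floor of 3 reads, where the exact counting interval starts at 8.78. chr4:133115001-133116000 had 2 liver reads against 113, a ratio of 29.0 (7.83 to 242) scaled to library size. chr9:106201001-106204000 had 8 against 285 (0.360 and 6.57 RPM per kb; log2 difference -3.75, SE 0.350, limma adjusted p = 0.000764).

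For H3K27ac, NPCs and liver could be ordered only at few regions. limma called 52 of 329 higher in NPCs than in liver (15.8%) and 35 lower (10.6%), where 38.9% and 27.6% of all 37980 regions and 45.3% and 9.00% of the other acetylated ES regions were called. The balance followed the scaling. With scaling by library size alone 12 were called higher and 46 lower, beside 8945 and 13754 of all 37980 regions. The higher share of the p300-low calls thus went from 59.8% to 20.7%. limma-voom called 28 and 7, beside 12618 and 7420 of all regions. The median log2 difference over all regions was 0.56, -0.27 and 0.93 under these 3 settings, and that of the p300-low regions less that of all regions was -0.16, 0.10 and 0. Under all 5 settings 12 (3.65%) were called higher and 7 (2.13%) lower, a count not made over all regions. Regions enriched only in NPCs or liver entered the table of all regions through those libraries. Both libraries had a median of 2 reads per p300-low region, and 35 of the 52 called higher had fewer than 10 NPC reads.

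The named regions, taken among those above the median level of all regions, had more reads. At chr3:86936001-86937000 NPCs had 61 H3K27ac reads (8.79 RPM) and liver 1, a ratio of 44.9 (7.77 to 1800), with 4.17 and 3.17 RPM in ES cells. At chr5:113898001-113899000 there were 38 reads against 2, and at chr9:106201001-106204000 65 against 6 (3.12 and 0.391 RPM per kb; log2 difference 4.00, SE 0.252, limma adjusted p = 0.00523). The last region was also high in MEF H3K4me1, and chr5:113898001-113899000 held 8.72 RPM of it. At chr7:25137001-25138000 NPCs had 0 reads and liver 31 (6.06 RPM), at least 14.0-fold lower in NPCs with a floor of 3 reads, where the exact counting interval starts at 10.7. Liver H3K4me1 was high there too. chr14:119502001-119503000 had 2 NPC reads against 59 in liver, and chr10:67516001-67517000 3 against 43.

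**Figure D5:**
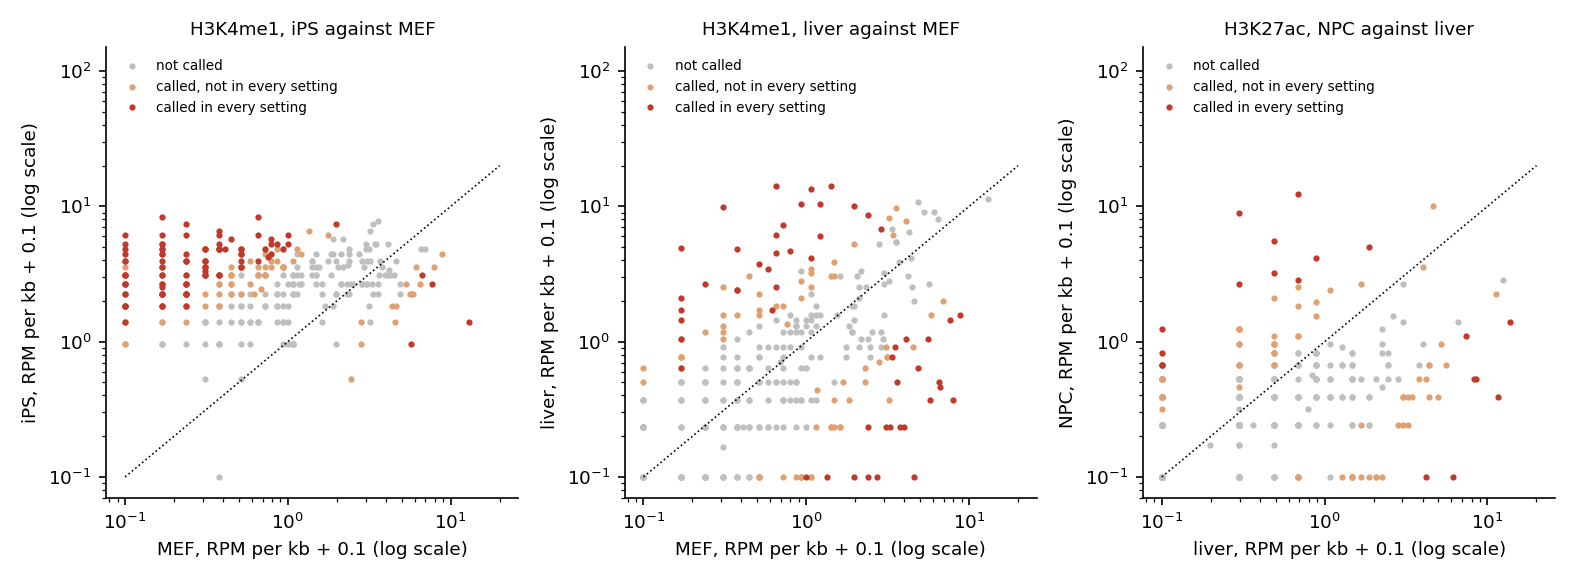
H3K4me1 in iPS cells and in liver against MEFs, and H3K27ac in NPCs against liver, each in RPM per kb plus 0.1 on log axes, with 1 point per p300-low region. Colours give limma calls at an adjusted p of 0.05, red for those called under every setting run (96 higher and 4 lower for iPS cells against MEFs, 29 and 23 for liver against MEFs, 12 and 7 for NPCs against liver), and the dotted line marks equal levels. Calls under every setting were not counted over all regions.

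Regions picked for the highest H3K27ac in NPCs or liver, leaving out chromosome 18, are given with their ES levels as a description. The highest NPC value of all 329 was 12.2 RPM, in a region that this leaves out. chr7:132891001-132892000 had 9.94 RPM in NPCs and 4.50 in liver, against 3.04 and 2.23 in the 2 ES libraries, and was marked in all 5 libraries of other cells. chr6:30003001-30004000 had 4.90 RPM in NPCs against 2.25 and 1.76 in ES cells, and chr5:32891001-32892000 4.04 against 2.82 and 2.12. In liver, chr3:51319001-51320000 had 13.7 RPM against 3.27 and 2.00 in ES cells, chr13:63558001-63559000 had 12.3 against 2.48 and 1.53, and chr14:119502001-119503000 had 11.5 against 2.48 and 1.76. Liver H3K4me1 at these 3 was 9.58, 14.0 and 8.5 RPM. H3K4me3, held below 1.5 RPM by the choice, was 0.622, 1.37 and 1.12 RPM in liver at these 3. In ES cells it was 0, 1.27 and 1.27 RPM. The medians of all p300-low regions were 0.124 RPM per kb in liver and 0.422 in ES cells, so the last 2 lay near the limit. ES cells had p300 of 0.567 and 0.358, 0.708 and 0.835, and 0.708 and 0.955 RPM there. p300 was not measured in NPCs or liver in the libraries used here.

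Rfx1, a factor of the regulatory factor X family, left few reads in NPCs. Its library had 0.705 M distinct reads, and 71 of 329 regions (21.6%) held at least 1 of them, against 1924 of 6055 regions with p300 (31.8%), which were wider on average. The highest p300-low regions held 4 reads (5.68 RPM), at chr7:15303001-15304000, chr2:162773001-162774000 and chr5:140052001-140053000. The other 258 held none.

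The p300-low regions were spread over all 19 autosomes. Their share of the acetylated distal bins ran from 0.733% on chromosome 12 to 2.47% on chromosome 18, with 30 regions on chromosome 11, the highest number. Only 12 (3.65%) lay within 10 kb of another such region and 69 (21%) within 100 kb.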

How the data were processed

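The authors deposited, for each of 20 libraries, the positions of aligned reads with a strand sign, neither counted nor normalised; the aligner is not given in the sources used here, nor is the build, and mm8 was inferred from the largest positions. Per the labels' protocols, chromatin was sonicated to about 500 bp and amplified with 18 PCR cycles. Distinct reads ran from 0.705 M (NPC Rfx1) to 14.5 M (MEF H3K4me1). Repeated positions (1.47 to 72.5% of reads) were counted once, reads were moved by 100 bp and binned at 1 kb (Python 3.11.15). RPM used distinct reads on chromosomes 1 to 19, X and Y. limma 3.58.1 (R 4.3.3) tested log2 CPM (prior count 2, scaled by trimmed means of M-values) over regions with at least 10 reads in 1 library. On simulated data, limma-trend called more unchanged regions than limma-voom did, above all for the shallow iPS library, so limma-voom counts stand beside each limma-trend count. Regions to be named were taken by rank (highest H3K27ac, widest, highest in NPCs, liver or Rfx1, largest limma differences, nearest the p300 limit), none on chromosome 18. Where bins tied at the p300 limit, genome order decided. Members, sets and tests were chosen with earlier results of these data known. No sequence is printed, as no genome of this build was used here.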

Additional observations from a re-analysis of the deposited data

How the results depend on the processing

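The number of p300-low regions was set by the limits. It was 57 with p300 below 0.75 RPM, 831 with the limit raised as much as it was lowered there, 75 with H3K27ac of at least 3 RPM, 210 with all reads kept, and 205 with RPM over chromosomes 1 to 19 alone, where 1 RPM of p300 replicate 1 is 6.96 reads, so that a bin with 7 reads fails. Without a read shift it was 331, and with H3K4me3 below 1 RPM 258. Leaving out a replicate gave 250 to 1220, the highest without p300 replicate 1; without p300 replicate 2 it was 960 and without H3K27ac replicate 2 509. With H3K27ac of at least 3 RPM, the marked shares were 10.7% for MEF H3K4me1, 1.33% for NPC H3K27ac, 4.00% for liver H3K27ac and 10.7% for liver H3K4me1. With 3 RPM required in the other cells they were 13.1%, 2.43%, 7.29% and 13.4%, and 52.3% for iPS H3K4me1. With all reads kept the NPC share was 2.38%. Leaving out a replicate gave 19.1 to 26.8% for MEF H3K4me1, 3.54 to 7.46% for NPC H3K27ac, 71.6 to 81.7% for iPS H3K4me1, 10.8 to 13.8% for liver H3K27ac and 16.8 to 21.5% for liver H3K4me1. Thinning MEF and liver H3K4me1 to the iPS depth gave 18.8% and 21%. For iPS against MEFs, leaving out an ES replicate gave 102 to 132 regions higher and 8 to 25 lower, with 8 lower by library size and 10 with limma-voom. Over all 84418 regions, 25371 were lower by library size and 19595 with limma-voom. For liver against MEFs, leaving out an ES replicate gave 30 to 63 higher and 29 to 44 lower, with 30 lower with limma-voom. For NPCs against liver, library size gave 12 higher, and limma-voom 28 higher and 7 lower. The cause was not tested except where stated. No paired analysis was possible because each contrast compares 2 single libraries. Of 102 alternative values, 69 stayed within the interval or 1.5 times of the reported one and 33 did not.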
